A study of Oryza sativa with 8 samples.

Results

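Rice seedlings of an SDG708 RNAi line kept in polyethylene glycol (PEG) were compared with untreated wild-type seedlings. The comparison used 6 of the 8 RNA sequencing libraries of the series: 3 of the treated RNAi line (708RNAi_PEG) and 3 of untreated wild-type (WT_control). The wild-type is named NIP where the expression values are given. Loci were taken where the expression value, as FPKM (fragments per kilobase of transcript, scaled to sequencing depth), was at least 1 in 2 or more of these 6 libraries, which gave 20808 of the 34119 loci in the table. All seedlings were 14 days old. The treated ones had stood in 20% PEG8000 for 3 h, a solute that lowers the water potential around the roots, and no treatment is labelled for the untreated ones. Genotype and treatment both differ between the groups and cannot be told apart in this comparison, since RNAi seedlings without PEG were not analysed here. Wild-type under the same PEG treatment (WT_PEG, n = 2) is set beside them. The RNAi plants are labelled as 1 line, 708Ri-1-1, and the row of SDG708 was not analysed here, so the knockdown was not checked in these libraries. SDG708 encodes a protein of the SET-domain family, whose members methylate histones.

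When a rice seedling loses water, the hormone abscisic acid (ABA) accumulates and binds PYL receptors, which then inhibit clade A protein phosphatases (PP2C). This frees SnRK2 kinases, which activate bZIP transcription factors and through them genes with ABA response elements in their promoters. Among the products of a dehydration response are proteins that protect drying cells, the dehydrins and other late embryogenesis abundant (LEA) proteins, enzymes of compatible solutes, and the PP2C phosphatases themselves, while genes of photosynthesis and growth are commonly reduced.

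Recovered reads per library ran from 30.8 to 49.7 megareads, and 302 loci of the table were at 0 in every library. No label names separate plants or cultures for the replicates, so the spread behind each p-value is that between libraries and may be a technical one. Replicate 3 of untreated wild-type stood apart from the other two, with a mean chi-square per locus of 20.1 and 17.9 against 2.46 between replicates 1 and 2. The seedling tissue carried both leaf and root markers: the 11 antenna protein genes and the 3 root-preferential genes listed were above 1 FPKM in all 8 libraries. Of 6 ammonium and nitrate transport genes, also planned as root markers, 3 passed the filter. Among these NAR2.1 was under 1 FPKM under PEG, with 0.531 and 0.624 in wild-type and 0.788, 0.653 and 0.680 in the RNAi line. Fewer cells of a type and less RNA per cell cannot be told apart in such bulk samples.

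Over all loci 8528 (41.0%) were higher and 8373 (40.2%) were lower in the treated RNAi line than in untreated wild-type, 81.2% in all (limma on log2(FPKM + 1), Benjamini-Hochberg adjusted p under 0.05). A difference of at least 2-fold on this scale was found for 2797 higher loci (13.4%) and 2040 lower loci (9.80%). These counts were 3398 and 3159 with log2(FPKM + 0.1), and 3481 and 3301 with limma-voom on recovered reads. On the log2(FPKM + 1) scale a difference of at least 8-fold was found for 427 higher and 46 lower loci, and 31 loci went from under 0.1 FPKM to at least 10 FPKM while 0 went the other way. Values of the 3 treated RNAi libraries all lay above the 3 untreated ones in 41.6% of loci and all below them in 40.8%. The median difference over all loci was 0.00 on the log2 scale. With libraries scaled to total recovered reads this median became -0.16 and the counts 6658 higher and 10504 lower, and with quantile normalization it became -0.07 and the counts 7622 and 9254. At the 2-fold level these scalings gave 2310 higher and 2721 lower loci, and 2404 and 2490. The balance of higher and lower loci therefore depends on the scaling, also at the 2-fold level. In the following, a gene called higher or lower passed the limma test named above, and ± after a log2 difference is its standard error. Folds given for a gene are ratios of mean FPKM, while 2-fold in counts of genes is on the log2(FPKM + 1) scale. Calls cover so large a share of the transcriptome that counts in a gene list are best read at the 2-fold level.

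**Figure D1:**
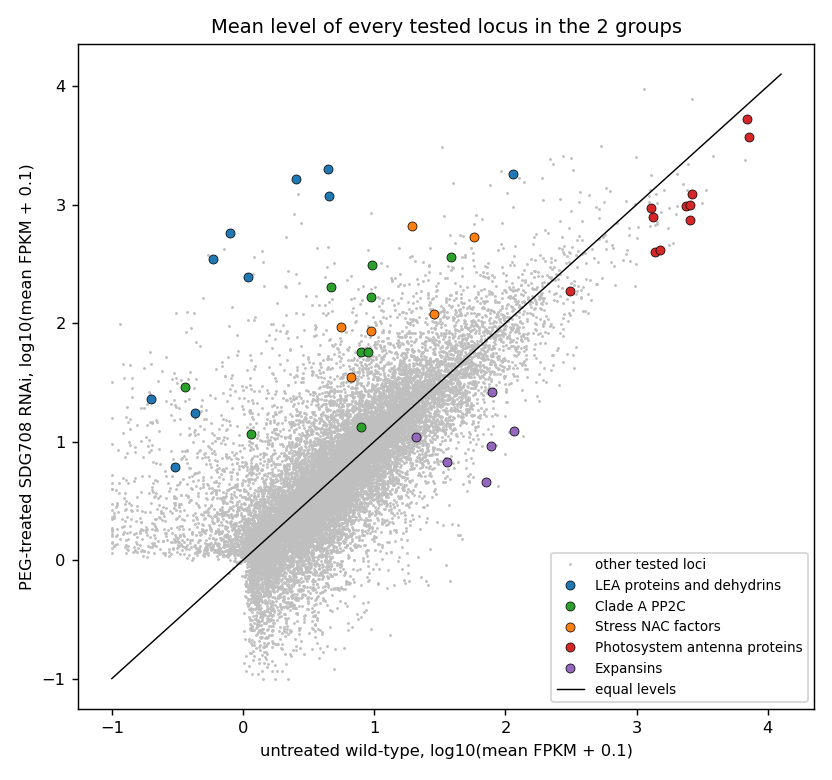
Mean level of each of the 20808 loci in untreated wild-type (horizontal) and in the PEG-treated SDG708 RNAi line (vertical), both as log10(mean FPKM + 0.1), with 5 gene lists coloured and the line of equal levels. The LEA and dehydrin genes lie far above the line, and the 11 antenna protein genes and 6 expansin genes below it.

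LEA proteins and dehydrins were the most strongly raised group. All 10 listed genes were higher, each by at least 2-fold, with a median log2 difference of 7.35. LEA3-1 (LOC_Os05g46480), a group 3 LEA protein gene, had 1.60, 3.13 and 2.51 FPKM in the untreated wild-type libraries and 1658, 1591 and 1723 FPKM in the treated RNAi libraries. The groups lie far apart, with a ratio of means of 687. Its mean went from 2.41 ± 0.770 to 1658 ± 66.1 FPKM (SD, n = 3 each), a log2 difference of 8.95 ± 0.14 (limma adjusted p = 2.7e-11). RAB16A (LOC_Os11g26790), a dehydrin gene, had 3.68, 5.69 and 3.54 FPKM untreated and 2000, 1960 and 1990 FPKM in the treated RNAi line. The 3 treated values lay within a narrow range, and the log2 difference was 8.57 ± 0.13 (limma adjusted p = 2.1e-11). WSI18 (LOC_Os01g50910), another LEA protein gene, went from 4.45 to 1185 FPKM.

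The 4 RAB16 genes lie next to each other on chromosome 11, and all 4 were at least 4-fold higher. RAB16B (LOC_Os11g26780) went from 0.697 to 575 FPKM, RAB16C (LOC_Os11g26760) from 0.997 to 243 FPKM and RAB16D (LOC_Os11g26750) from 0.329 to 17.2 FPKM. They are similar copies, so the division of reads among them is uncertain. LIP9 (LOC_Os02g44870), a dehydrin gene that was already expressed without treatment, went from 113 ± 5.12 to 1809 ± 122 FPKM (SD, n = 3 each), or 16.0-fold. The embryo gene EM (LOC_Os05g28210) went from 0.0985 to 22.6 FPKM. Against wild-type under PEG, 6 of the 10 genes were higher in the treated RNAi line, 1 was lower and 3 did not pass (limma, same threshold), in a comparison where 21.4% of loci were higher and 16.2% lower. The call of RAB16B was lost without WT_PEG replicate 1 or 708RNAi_PEG replicate 1, and that of RAB25 without either WT_PEG library and without 708RNAi_PEG replicate 1 or 3. LEA3-1, which did not pass, did so without WT_control replicate 1. The lower gene was RAB16D, at 22.2 FPKM in wild-type under PEG. The summed FPKM of the 10 genes was 121 to 132 in untreated wild-type, 6107 and 6255 in wild-type under PEG and 7599 to 8074 in the treated RNAi line.

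Seed storage protein genes are transcribed in seeds together with many LEA genes. Their reads were high in the treated RNAi line and near the untreated ones in wild-type under PEG. Their 10 loci, a list chosen with earlier results of these data known, together had 186 to 210 reads per untreated wild-type library, 180 and 261 in wild-type under PEG, and 1438 to 2413 in the treated RNAi libraries. The part of seed-type transcripts in the differences of the treated RNAi line from either wild-type group was not tested.

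**Figure D2:**
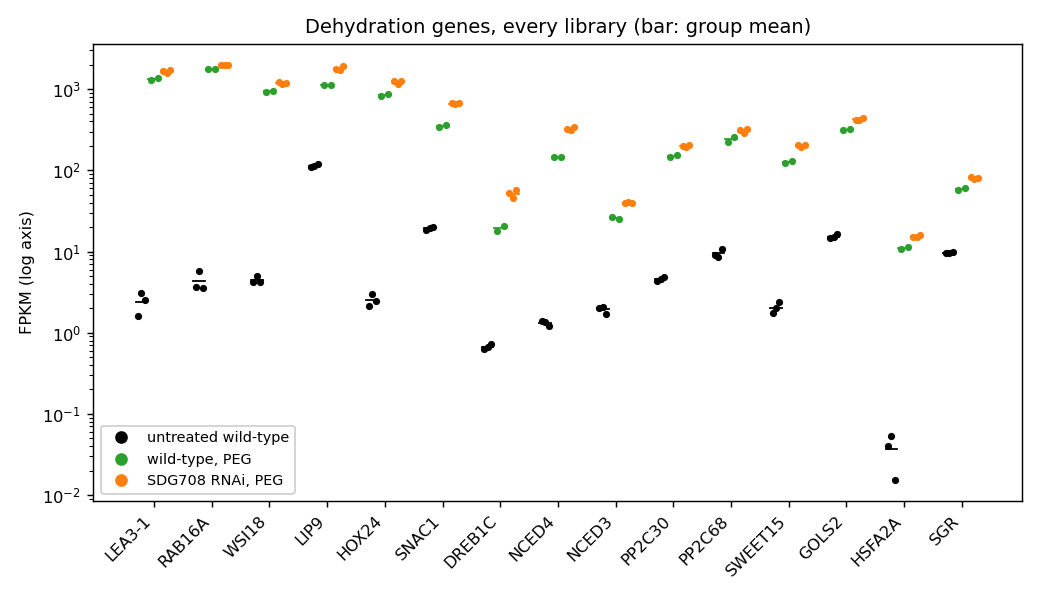
FPKM on a log axis of 15 dehydration-related genes in every library, with bars at group means, for untreated wild-type, wild-type under PEG and the PEG-treated RNAi line. In each of the 15 genes all treated values lie above all untreated values, and the RNAi points lie above the wild-type PEG points. The genes are a selection: RAB16D and NCED1, of the same lists, were lower in the treated RNAi line than in wild-type under PEG. LEA3-1 and RAB16A did not pass the test between the treated groups.

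ABA synthesis genes went both ways. Of 6 listed genes 3 were higher and 2 lower, all by at least 2-fold, and 1 sat at the untreated level. NCED4 (LOC_Os07g05940), a 9-cis-epoxycarotenoid dioxygenase whose step is rate-limiting for ABA, had 1.41, 1.35 and 1.2 FPKM untreated and 327, 313 and 337 FPKM in the treated RNAi libraries. The ratio of the group means was 248, with a log2 difference of 7.14 ± 0.05 (limma adjusted p = 1.5e-12). NCED3 (LOC_Os03g44380) went from 1.94 ± 0.202 to 40.2 ± 1.03 FPKM (SD, n = 3 each) and NCED5 (LOC_Os12g42280) from 1.55 ± 0.0943 to 19.9 ± 0.471 FPKM. NCED1 (LOC_Os02g47510), the dioxygenase gene with 244, 249 and 277 FPKM in untreated wild-type, had 31.0, 30.0 and 28.8 FPKM in the treated RNAi line. It was thus lowered in all 3 libraries, by a log2 difference of -3.05 ± 0.06 (limma adjusted p = 1.0e-10), while wild-type under PEG had 124 and 132 FPKM. NCED2 (LOC_Os12g24800) fell from 4.91 to 0.0768 FPKM.

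ZEP1 (LOC_Os04g37619), the zeaxanthin epoxidase that makes the precursor of the NCED substrates, sat at the untreated level. It had 23.2, 22.5 and 22.3 FPKM untreated and 23.4, 23.7 and 23.4 FPKM in the treated RNAi line, and 31.9 and 31.3 FPKM in wild-type under PEG. The difference from untreated wild-type was 0.05 on the log2 scale with a 95% interval of -0.03 to 0.13. The direct difference between the treated RNAi line and wild-type under PEG was -0.41 ± 0.04 (limma adjusted p = 7.0e-05). With quantile normalization ZEP1 was called lower than untreated at -0.30, and with total-read scaling at -0.15, so its place depends on the scaling.

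The ABA 8'-hydroxylase genes, whose products break ABA down, were higher in 2 of 3 cases, and 1 sat at the untreated level. ABA8ox2 (LOC_Os08g36860) went from 2.47 ± 0.102 to 16.7 ± 0.452 FPKM (SD, n = 3 each) and ABA8ox1 (LOC_Os02g47470) from 3.29 ± 0.110 to 16.88 ± 0.583 FPKM. ABA8ox3 (LOC_Os09g28390) had 1.64, 1.93 and 2.02 FPKM untreated and 2.26, 1.96 and 2.15 FPKM in the treated RNAi line. These ranges overlap, and both lie below the 3.45 and 3.90 FPKM of wild-type under PEG. Its difference from untreated wild-type was 0.13 on the log2 scale, with an interval of -0.03 to 0.28, and it kept its place at the untreated level in 11 of 17 alternatives. It lost that place without WT_control replicate 2 or 3 and without 708RNAi_PEG replicate 2, among others.

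Most listed ABA receptor genes were lower, and the genes of the phosphatases that the receptors inhibit were higher. Of 5 PYL receptor genes 4 were lower, 1 of them by at least 2-fold, and 0 were higher. Over all loci 40.2% were lower, and 9.80% were lower by at least 2-fold. PYL6 (LOC_Os03g18600) had 41.8, 41.2 and 48.2 FPKM untreated and 9.81, 9.01 and 10.7 FPKM in the treated RNAi line, a log2 difference of -2.05 ± 0.07 (limma adjusted p = 5.3e-09). Wild-type under PEG stood lower still, at 5.62 and 5.85 FPKM. PYL1 (LOC_Os10g42280) went from 55.7 to 30.4 FPKM, and under quantile normalization or total-read scaling 2 receptor genes were lower by at least 2-fold.

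All 9 clade A PP2C genes were higher, 8 of them by at least 2-fold, with a median log2 difference of 3.20. PP2C30 (LOC_Os03g16170) had 4.28, 4.58 and 4.81 FPKM untreated and 200, 193 and 206 FPKM in the treated RNAi line, or 43.8-fold more. PP2C68 (LOC_Os09g15670) went from 9.53 ± 1.15 to 307 ± 18.5 FPKM (SD, n = 3 each). Against wild-type under PEG 3 of the 9 genes were higher in the treated RNAi line and 0 lower. In that test 21.4% of all loci were higher and 16.2% lower. The 3 were PP2C51 (LOC_Os05g49730), PP2C30 and PP2C68, the last 2 by log2 differences of 0.40 and 0.35 (limma adjusted p = 0.00063 and 0.018). For PP2C68 this direct call was lost without WT_PEG replicate 1, without 708RNAi_PEG replicate 1 or 3 and with quantile normalization. PP2C06, PP2C08, PP2C09, PP2C49, PP2C50 and PP2C53 differed from wild-type under PEG by -0.05 to 0.05 on the log2 scale, with standard errors of 0.04 to 0.14, and did not pass that test. PP2C53 (LOC_Os05g51510) was the gene of the list below the 2-fold level, at 7.89 and 13.3 FPKM.

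SnRK2 kinase genes differed less. Of 10 genes 8 were higher, 3 by at least 2-fold, and 1 was lower. SAPK6 (LOC_Os02g34600) went from 4.16 ± 0.123 to 22.1 ± 1.04 FPKM and SAPK1 (LOC_Os03g27280) from 5.82 ± 0.115 to 21.6 ± 0.583 FPKM (SD, n = 3 each). SAPK2 (LOC_Os07g42940) had 12.8, 13.5 and 13.9 FPKM untreated, 12.2 and 12 in wild-type under PEG, and 22.3, 21.7 and 23.5 in the treated RNAi line. The treated RNAi libraries alone stood high, with direct log2 differences of 0.70 from untreated and 0.84 from PEG-treated wild-type (limma adjusted p = 4.3e-07 and 4.4e-06). SAPK7 (LOC_Os04g35240) sat at the untreated level, at 3.32 and 3.13 FPKM, and SAPK5 (LOC_Os04g59450) was lower at 0.807 of untreated. SAPK7 lost that place with total-read scaling, where it was called lower at -0.23 on the log2 scale.

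Most tested transcription factor genes of the ABA and drought pathways were higher. Of 7 ABF-type bZIP genes 6 were higher, 5 by at least 2-fold. BZIP23 (LOC_Os02g52780) had 7.34, 7.53 and 7.89 FPKM untreated and 67.1, 64.6 and 69.8 FPKM in the treated RNAi line, and BZIP12 (LOC_Os01g64730) went from 9.62 to 52.5 FPKM. BZIP71 (LOC_Os09g13570) was lower, at 24.0 against 33.7 FPKM. All 6 stress NAC factor genes were higher by at least 2-fold. SNAC1 (LOC_Os03g60080), a NAC factor known for raising drought tolerance in rice, had 18.7, 19.4 and 20.1 FPKM untreated and 676, 652 and 667 FPKM in the treated RNAi line, 34.3-fold more (log2 difference 5.03 ± 0.05, limma adjusted p = 2.7e-12). Wild-type under PEG lay between, at 342 and 359 FPKM. NAC10 (LOC_Os11g03300) went from 5.51 to 93.3 FPKM.

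Of the 3 listed HD-Zip I factor genes all were higher, 2 by at least 2-fold. HOX24 (LOC_Os02g43330) had 2.12, 3.04 and 2.44 FPKM untreated and 1245, 1161 and 1279 FPKM in the treated RNAi line, a log2 difference of 8.45 ± 0.09 (limma adjusted p = 3.6e-12). On the log2(FPKM + 1) scale its rise was exceeded only by those of LEA3-1 and RAB16A, while by the ratio of means, 484, it was exceeded by LEA3-1 (687) and by loci of lower untreated level, among them RAB16B (824) and LEA3-2 (709). HOX22 (LOC_Os04g45810) went from 26.5 to 433 FPKM. Of 9 DREB factor genes 5 passed the filter, and 4 of these were higher, 2 by at least 2-fold. DREB1C (LOC_Os06g03670), of the family known for cold and drought responses, had 0.636, 0.658 and 0.717 FPKM untreated, 18 and 20.5 in wild-type under PEG and 52.4, 45.6 and 57.7 in the treated RNAi line. The 3 groups did not overlap. DREB2A (LOC_Os01g07120) went from 2.15 to 12.5 FPKM, while DREB1B (LOC_Os09g35010), at 1.38 and 1.69 FPKM, did not pass, though it did without WT_control replicate 3 or 708RNAi_PEG replicate 2. The call of DREB1A (LOC_Os09g35030), at 3.75 and 5.02 FPKM, was lost without WT_control replicate 1 or 2, without 708RNAi_PEG replicate 3 and with total-read scaling.

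**Figure D3:**
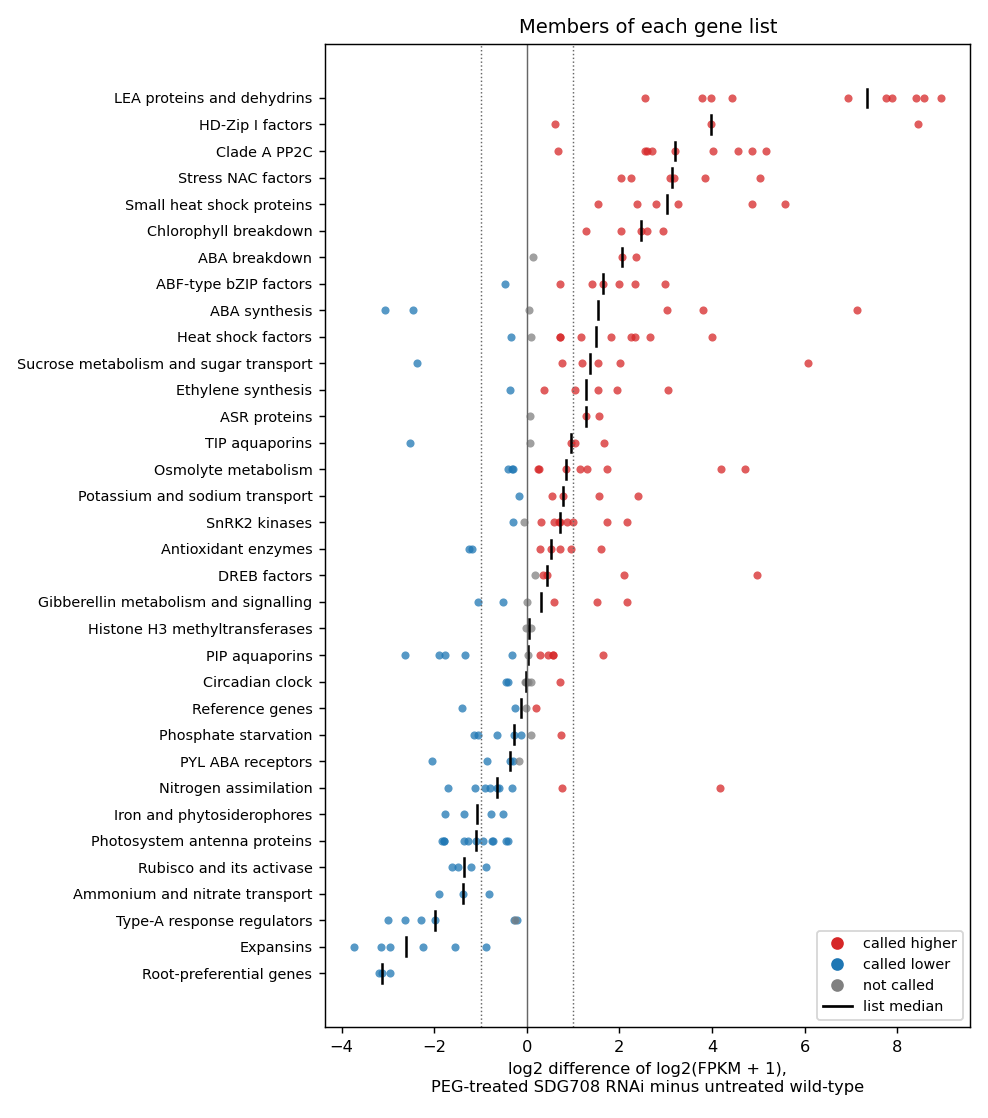
Log2 difference between the PEG-treated RNAi line and untreated wild-type for each tested member of 34 gene lists, with black bars at list medians and dotted lines at 2-fold. LEA proteins and dehydrins have a median of 7.35, clade A PP2C genes 3.20, antenna proteins -1.09 and root-preferential genes -3.13.

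Solute and sugar genes were raised selectively. In osmolyte metabolism 8 of 11 tested genes were higher, 5 by at least 2-fold, and 3 were lower. GOLS2 (LOC_Os07g48830), a galactinol synthase gene of raffinose sugar synthesis, had 14.7, 14.9 and 16.2 FPKM untreated and 420, 417 and 442 FPKM in the treated RNAi line. GOLS1 (LOC_Os03g20120) went from 18.5 to 358 FPKM. P5CS1 (LOC_Os05g38150), the first enzyme of proline synthesis from glutamate, was 2.60-fold higher, at 24.1 FPKM against 23.6 FPKM in wild-type under PEG. P5CR (LOC_Os01g71990), the second enzyme of that route, was lower at 0.707 of untreated. The trehalose phosphate synthase gene TPS1 (LOC_Os05g44210) was lower at 0.718. The proline dehydrogenase gene PRODH (LOC_Os10g40360) was higher by 1.21-fold, a direction that quantile normalization turned and a call that equal medians or total-read scaling ended.

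SWEET15 (LOC_Os02g30910), a sucrose exporter gene, had 1.75, 1.99 and 2.38 FPKM untreated and 205, 195 and 207 FPKM in the treated RNAi line. This was a 99.3-fold difference, and wild-type under PEG lay below it with 122 and 129 FPKM. The sucrose transporter gene SUT1 (LOC_Os03g07480) went from 7.88 ± 0.433 to 35 ± 2.15 FPKM (SD, n = 3 each). SUS1 (LOC_Os03g28330), a sucrose synthase gene, went the other way. It had 236, 234 and 222 FPKM untreated and 43.1, 45.5 and 43.4 FPKM in the treated RNAi line, next to 42.0 and 43.2 FPKM in wild-type under PEG. Among the ASR genes, named for their response to ABA, stress and ripening, ASR5 (LOC_Os11g06720) went from 2641 to 7707 FPKM and ASR4 (LOC_Os01g72910) from 4.91 to 13.2 FPKM. ASR1 (LOC_Os02g33820) had 138, 135 and 153 FPKM untreated and 147, 145 and 150 FPKM in the treated RNAi line. It sat at the untreated level there, above the 107 FPKM of both wild-type PEG libraries (direct log2 difference 0.45 ± 0.06, limma adjusted p = 0.00042). With quantile normalization ASR1 was called lower than untreated, at -0.46 on the log2 scale. With total-read scaling it was called lower too, and without WT_control replicate 3 it was called higher, at 0.11.

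Heat shock genes were raised although no heat treatment is labelled. All 6 genes of the heat shock protein list were higher by at least 2-fold, with a median log2 difference of 3.03. HSP17.4 (LOC_Os03g16020), a cytosolic small heat shock protein gene, had 4.95, 3.24 and 4.22 FPKM untreated and 238, 232 and 257 FPKM in the treated RNAi line. HSP101 (LOC_Os05g44340), a disaggregase that is no small heat shock protein, was listed with them and went from 0.210 to 34.2 FPKM. HSP26.7 (LOC_Os03g14180) had 4.37 FPKM in the treated RNAi line and 9.22 FPKM in wild-type under PEG, a direct log2 difference of -0.93 ± 0.06 (limma adjusted p = 4.4e-06). Of 10 heat shock factor genes 8 were higher, 6 by at least 2-fold, and HSFA2D (LOC_Os03g06630) was lower at 0.771. HSFA2A (LOC_Os03g53340) had 0.0400, 0.0541 and 0.0153 FPKM untreated and 15.3, 15.1 and 16.0 FPKM in the treated RNAi line. It was close to undetected in all 3 untreated libraries. HSFC1A (LOC_Os01g43590) sat at the untreated level, at 1.44 and 1.60 FPKM. It lost that place with log2(FPKM + 0.1), quantile normalization or limma-voom.

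Genes of chlorophyll breakdown were higher while genes of the photosynthetic apparatus were lower. All 5 breakdown genes were higher by at least 2-fold. SGR (LOC_Os09g36200), the stay-green gene needed to dismantle chlorophyll, had 9.55, 9.58 and 9.76 FPKM untreated and 83.8, 78.2 and 80.9 FPKM in the treated RNAi line, with 56.9 and 60.2 in wild-type under PEG. NYC1 (LOC_Os01g12710), a chlorophyll b reductase gene, went from 13.0 ± 0.475 to 83.7 ± 1.5 FPKM (SD, n = 3 each). Both were higher in the treated RNAi line than in wild-type under PEG, by log2 differences of 0.46 and 0.53 (limma adjusted p = 9.2e-05 and 5.0e-05). Of the other breakdown genes NYC3 and PAO did not pass that test and NOL (LOC_Os03g45194) was lower, at 6.90 against 7.79 FPKM, a call lost when any 1 of the 5 PEG libraries was left out. The median direct difference of the 5 genes was 0.04 on the log2 scale.

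All 11 antenna protein genes were lower, 6 by at least 2-fold, with a median log2 difference of -1.09. LHCB5 (LOC_Os11g13890), a minor antenna protein gene of photosystem II, had 1323, 1302 and 1493 FPKM untreated and 401, 397 and 385 FPKM in the treated RNAi line. It fell to 0.287 of the untreated level, and LHCB6 (LOC_Os04g38410) to 0.279. LHCA3 (LOC_Os02g10390), of the photosystem I antenna, had 1277 FPKM untreated, 1395 in wild-type under PEG and 935 in the treated RNAi line. Of the 3 groups the treated RNAi line alone stood below untreated wild-type here. The call of CAB1R (LOC_Os09g17740), at 6980 and 5279 FPKM, was lost without 708RNAi_PEG replicate 2 and with no filter on low values. The 4 genes of Rubisco and its activase were lower, 3 by at least 2-fold. RCA (LOC_Os11g47970), the Rubisco activase gene, had 3156, 3169 and 3117 FPKM untreated, 1716 and 1677 in wild-type under PEG and 1023, 1033 and 1031 in the treated RNAi line. The 3 groups formed 3 separate steps. The small subunit gene RBCS2 (LOC_Os12g17600) went from 6643 to 2357 FPKM, against 2282 in wild-type under PEG. RBCS copies are nearly identical, so their separate values are uncertain.

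Root genes fell furthest among the lists. The 3 root-preferential genes were lower by at least 2-fold, with a median log2 difference of -3.13. LSI1 (LOC_Os02g51110), a silicon influx channel gene of roots, had 54.3, 54.9 and 51.5 FPKM untreated and 5.37, 5.05 and 5.30 FPKM in the treated RNAi line. LSI2 (LOC_Os03g01700), the matching efflux transporter gene, had 47.7, 51.6 and 43.6 FPKM untreated and 4.36, 4.26 and 4.28 FPKM treated. They stood at 0.0978 and 0.0903 of untreated, and wild-type under PEG was close by, at 5.76 and 4.56 FPKM. RCC3 (LOC_Os02g44310), a root-specific protein gene, went from 334 to 42.0 FPKM. The share of root in each sample is not labelled, and its part in these differences was not tested.

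Most nutrient uptake genes listed were lower. The 3 tested ammonium and nitrate transport genes were lower, 2 by at least 2-fold, and with no filter on low values 6 were. NAR2.1 (LOC_Os02g38230), the partner protein of nitrate transporters, went from 5.37 ± 0.512 to 0.707 ± 0.0715 FPKM and the ammonium transporter gene AMT1-1 (LOC_Os04g43070) from 43.7 ± 0.118 to 16.3 ± 0.851 FPKM (SD, n = 3 each). Of 9 nitrogen assimilation genes 7 were lower, 2 by at least 2-fold. That number was 6 with quantile normalization and 4 with total-read scaling. GS1-2 (LOC_Os03g12290), a cytosolic glutamine synthetase gene, went from 55.4 to 16.3 FPKM. The other 2 were higher, GOGAT1 (LOC_Os01g48960) from 14.5 to 25.1 FPKM and NIA2 (LOC_Os02g53130), listed as a nitrate reductase gene. NIA2 had 3.67, 3.42 and 3.43 FPKM untreated and 77.6, 79.9 and 81.5 FPKM in the treated RNAi line. Its log2 difference of 4.16 ± 0.04 (limma adjusted p = 3.5e-12) was accompanied by 45 and 42.9 FPKM in wild-type under PEG. NIA1 (LOC_Os08g36480) fell from 20.8 to 9.05 FPKM.

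Some iron and phosphate genes differed between the 2 treated groups. In the direct test 2 of 4 iron genes, NAS1 and NAS2, were higher in the treated RNAi line and 0 lower. Of 7 phosphate genes 2 were higher and 3 lower, in a test where 21.4% of all loci were higher and 16.2% lower. The call of SPX1 was lost without WT_PEG replicate 1, and those of PT4 and PHO2 without WT_PEG replicate 2. NAS2 (LOC_Os03g19420), a nicotianamine synthase gene for iron transport, had 25.3, 26.0 and 29.7 FPKM untreated, 2.04 and 1.76 in wild-type under PEG and 19.6, 17.43 and 19.1 in the treated RNAi line. The treated RNAi line thus stood at 0.693 of the untreated level, and 9.86-fold above wild-type under PEG (direct log2 difference 2.77 ± 0.08, limma adjusted p = 5.3e-08). Its neighbour NAS1 (LOC_Os03g19427) went from 25.7 to 9.45 FPKM, against 1.3 FPKM in wild-type under PEG. The 2 genes are similar copies, so the division of reads between them is uncertain. NRAMP5 (LOC_Os07g15370), a manganese uptake gene of roots, fell to 0.121 of untreated, and its direct difference of 0.14 missed the threshold (limma adjusted p = 0.0504) but passed without WT_control replicate 3. All 4 tested genes of this list were lower.

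SPX2 (LOC_Os02g10780), a sensor protein gene of phosphate signalling, had 2.92, 2.75 and 3.22 FPKM untreated, 8.81 and 8.88 in wild-type under PEG and 1.00, 0.726 and 0.968 in the treated RNAi line. Wild-type under PEG stood above untreated wild-type and the treated RNAi line below it. The log2 difference from untreated was -1.06 ± 0.07 (limma adjusted p = 3.6e-07). On the log2(FPKM + 1) scale it fell short of 2-fold without 708RNAi_PEG replicate 2, where 1 phosphate gene in place of 2 was lower by at least 2-fold. SPX4 (LOC_Os03g61200) went from 5.92 to 10.6 FPKM and the phosphate transporter gene PT2 (LOC_Os03g05640) from 3.70 to 1.15 FPKM. SPX1 (LOC_Os06g40120) sat at the untreated level in all 17 alternatives, at 3.28 ± 0.183 and 3.53 ± 0.0698 FPKM (SD, n = 3 each). PT8 (LOC_Os10g30790), at 39.8 and 36.6 FPKM, sat there as well, although it was called lower, a call lost without WT_control replicate 1 and without 708RNAi_PEG replicate 1 or 2. With quantile normalization or total-read scaling PT8 lost its place at the untreated level.

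Of 5 tested potassium and sodium transport genes 4 were higher, 2 of them by at least 2-fold, and 1 was lower. NHX1 (LOC_Os07g47100), a sodium/proton antiporter gene of the vacuole, went from 6.28 ± 0.168 to 37.3 ± 1.34 FPKM (SD, n = 3 each), and HKT2-1 (LOC_Os06g48810) from 4.62 to 15.4 FPKM. SOS1 (LOC_Os12g44360), the antiporter gene of the plasma membrane, had 4.83, 5.16 and 4.21 FPKM untreated and 4.05, 4.16 and 4.0 FPKM in the treated RNAi line. It was called lower (log2 difference -0.17 ± 0.06, limma adjusted p = 0.026) and also met the rule for the untreated level. The call was lost without WT_control replicate 1 or 2 and without 708RNAi_PEG replicate 1 or 3, and the place at the untreated level held in 4 of 17 alternatives.

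Aquaporin genes of the plasma membrane (PIP) and the vacuole (TIP) went both ways. Of 11 PIP genes 5 were higher, 1 by at least 2-fold, and 5 were lower, 4 by at least 2-fold. Quantile normalization left 1 higher. Over all loci 41.0% were higher and 40.2% lower. PIP2-7 (LOC_Os09g36930) had 189, 192 and 229 FPKM untreated and 32.0, 29.6 and 34.0 FPKM in the treated RNAi line, with 29.0 and 32.3 in wild-type under PEG. PIP2-8 (LOC_Os03g64330) was the PIP gene raised by at least 2-fold, with 0.536, 0.540 and 0.490 FPKM untreated, 0.438 and 0.390 in wild-type under PEG and 4.22, 3.53 and 3.59 in the treated RNAi line. The treated RNAi libraries alone stood high, 9.13-fold above wild-type under PEG (direct log2 difference 1.75 ± 0.07, limma adjusted p = 3.5e-07). PIP2-6 (LOC_Os04g16450) sat at the untreated level, at 212 and 216 FPKM. Of 5 TIP genes TIP1-2 (LOC_Os01g74450) was higher by 3.20-fold and TIP1-1 (LOC_Os03g05290) by 2.06-fold. The latter fell under the 2-fold level with equal medians, quantile normalization or total-read scaling. TIP2-1 (LOC_Os02g44080) fell from 192 to 32.7 FPKM, and TIP4-1 (LOC_Os05g14240) sat at the untreated level with 56.5 and 58.8 FPKM, and was called higher without WT_control replicate 3, at 0.12 on the log2 scale. With quantile normalization PIP2-6 and TIP4-1 lost the untreated level and were called lower, at -0.50 and -0.39. PIP2-6 was also called lower with total-read scaling.

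Growth genes were lower. All 6 expansin genes, whose products loosen the cell wall, were lower, 5 by at least 2-fold, with a median log2 difference of -2.60. EXPA2 (LOC_Os01g60770) had 69.1, 70.3 and 73.4 FPKM untreated and 4.93, 4.15 and 4.28 FPKM in the treated RNAi line, a log2 difference of -3.72 ± 0.07 (limma adjusted p = 8.8e-11). EXPB3 (LOC_Os10g40720) fell from 116 to 12.3 FPKM, and stood higher than in wild-type under PEG, where it had 8.07 FPKM. The type-A response regulators are induced by cytokinin, and 6 of 7 tested genes were lower, 4 by at least 2-fold. RR10 (LOC_Os12g04500) had 12.7, 12.4 and 12.9 FPKM untreated and 0.942, 0.661 and 0.549 FPKM in the treated RNAi line. RR2 (LOC_Os02g35180) went from 28.4 ± 0.911 to 3.75 ± 0.140 FPKM (SD, n = 3 each). RR3 (LOC_Os02g58350), at 1.45 and 1.03 FPKM, did not pass, though it did without WT_control replicate 1. The call of RR6 (LOC_Os04g57720), at 11.6 and 9.86 FPKM, was lost without WT_control replicate 3, without 708RNAi_PEG replicate 2 and with no filter on low values.

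**Figure D4:**
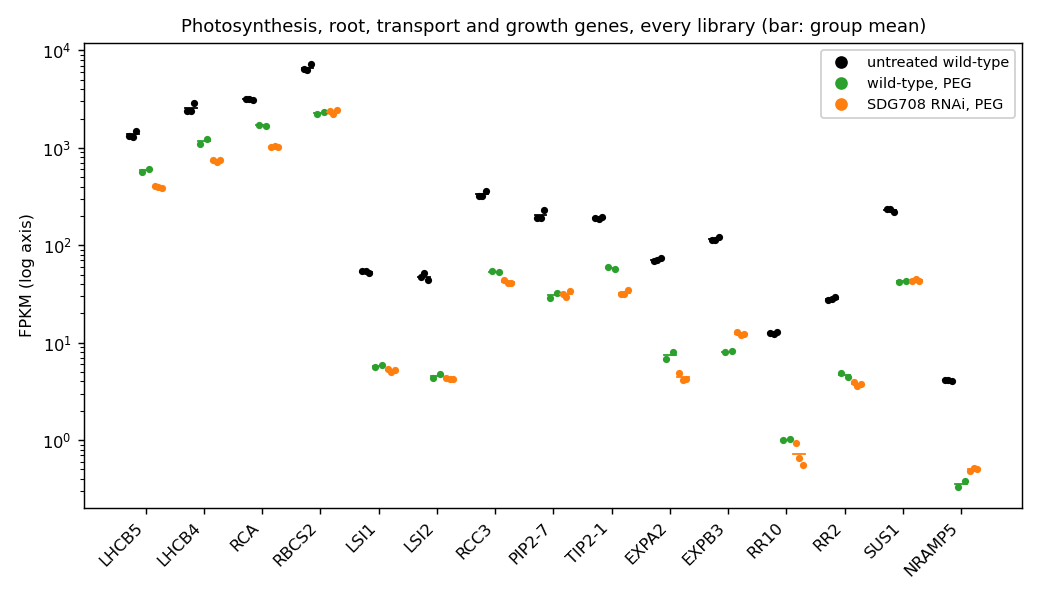
FPKM on a log axis of 15 genes of photosynthesis, roots, water and nutrient transport, growth and sugar use in every library, with bars at group means. All treated RNAi values lie below all untreated values in each gene, and so do all wild-type PEG values. The RNAi means are 0.554 to 1.52 of the wild-type PEG means.

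Gibberellin and ethylene genes differed gene by gene. Of 6 tested gibberellin genes 3 were higher, 2 by at least 2-fold, and 2 were lower, 1 by at least 2-fold. GID1 (LOC_Os05g33730), the gibberellin receptor gene, went from 27.4 ± 0.665 to 126 ± 2.96 FPKM (SD, n = 3 each), and GA2ox3 (LOC_Os01g55240), an enzyme that inactivates gibberellin, from 8.05 to 24.8 FPKM. GA20ox1 (LOC_Os03g63970), of gibberellin synthesis, fell from 5.98 to 2.36 FPKM. On the log2(FPKM + 1) scale this difference was under 2-fold without 708RNAi_PEG replicate 3. Of the other synthesis genes GA3ox2 (LOC_Os01g08220) was lower, at 0.654 of untreated, and GA20ox2 (LOC_Os01g66100) was higher, by 0.60 on the log2 scale. SLR1 (LOC_Os03g49990), the DELLA repressor gene, sat at the untreated level with 69.6, 69.8 and 73.1 FPKM untreated and 71.6, 72.2 and 69.3 FPKM in the treated RNAi line. It lost this place with quantile normalization, where it was called lower at -0.48 on the log2 scale. With total-read scaling SLR1 was called lower too. Of 6 ethylene synthesis genes 5 were higher, 4 by at least 2-fold. ACS2 (LOC_Os04g48850), a synthase of the ethylene precursor, went from 0.657 to 12.7 FPKM. ACS6 (LOC_Os06g03990) was lower at 0.764 of untreated.

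Antioxidant enzyme genes were also mixed. Of 7 genes 5 were higher, 1 by at least 2-fold, and 2 were lower, 2 by at least 2-fold. Over all loci 13.4% were higher and 9.80% lower at that level. SODCC2 (LOC_Os07g46990), a copper/zinc superoxide dismutase gene, had 29.0, 27.4 and 31.0 FPKM untreated, 50.2 and 49.1 in wild-type under PEG and 92.1, 86.2 and 94.8 in the treated RNAi line. The 3 groups did not overlap. The catalase genes CATC (LOC_Os03g03910) and CATA (LOC_Os02g02400) were lower, at 0.418 and 0.440 of untreated, and CATB (LOC_Os06g51150) was higher by 1.97-fold. APX2 (LOC_Os07g49400), an ascorbate peroxidase gene, was higher by 1.22-fold, and quantile normalization turned this to a call as lower.

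Loci at the untreated wild-type level were defined by closeness, since a missed test does not show equality. The 95% interval of the log2 difference had to lie within 0.32 of 0 on either side, and the mean had to be at least 1 FPKM in both groups. This held for 4395 loci (21.1%). Of these 3098 were not called and 1297 were called in spite of their small difference, and 809 loci were neither called nor at this level. The median untreated level of the 4395 loci was 4.43 FPKM, against 4.61 FPKM over all loci tested.

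The circadian clock was the list with the most members at the untreated level, 5 of 8. LHY (LOC_Os08g06110), a morning clock factor gene, had 43.6, 42.5 and 38.1 FPKM untreated and 43.5, 47.3 and 42.3 FPKM in the treated RNAi line. The ranges overlap, and the difference was 0.10 with an interval of -0.04 to 0.24 on the log2 scale. PRR73 (LOC_Os03g17570), PRR37 (LOC_Os07g49460), PRR59 (LOC_Os11g05930) and ELF3 (LOC_Os06g05060) were there too, with means of 36.2, 5.50, 6.69 and 7.25 FPKM in the treated RNAi line against 36.7, 5.72, 6.57 and 7.33 FPKM untreated. Of these PRR37 and PRR73 were lower than in wild-type under PEG, which had 7.52 and 43.4 FPKM (limma adjusted p = 0.00085 and 0.0062). GI (LOC_Os01g08700) was higher, at 93.6 against 57.0 FPKM, and PRR1 (LOC_Os02g40510) and PRR95 (LOC_Os09g36220) were lower, at 0.690 and 0.747 of untreated. With quantile normalization or total-read scaling 2 clock genes stayed at the untreated level and 5 were called lower.

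Both listed histone H3 methyltransferase genes with a row sat at the untreated level. SDG724 (LOC_Os09g13740) had 2.32, 2.19 and 2.47 FPKM untreated and 2.29, 2.12 and 2.52 FPKM in the treated RNAi line, and kept this place in all 17 alternatives. SDG725 (LOC_Os02g34850) had 2.43, 2.58 and 1.80 FPKM untreated and 2.47, 2.43 and 2.55 FPKM treated. Its place held in 10 of 17 alternatives, and was lost without WT_control replicate 1 or 2 and without 708RNAi_PEG replicate 1 or 2, among others. Among genes often used as references, EIF4A (LOC_Os06g48750) sat at the untreated level at 68.4 and 78.8 FPKM. It was called higher, although quantile normalization and total-read scaling turned its sign, and its place at the untreated level was lost without WT_control replicate 1 or 708RNAi_PEG replicate 1. The actin gene ACT1 (LOC_Os03g50885) did not keep its level, with 142, 141 and 144 FPKM untreated, 48.3 and 49.1 in wild-type under PEG and 53.8, 55.1 and 50.7 in the treated RNAi line.

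**Figure D5:**
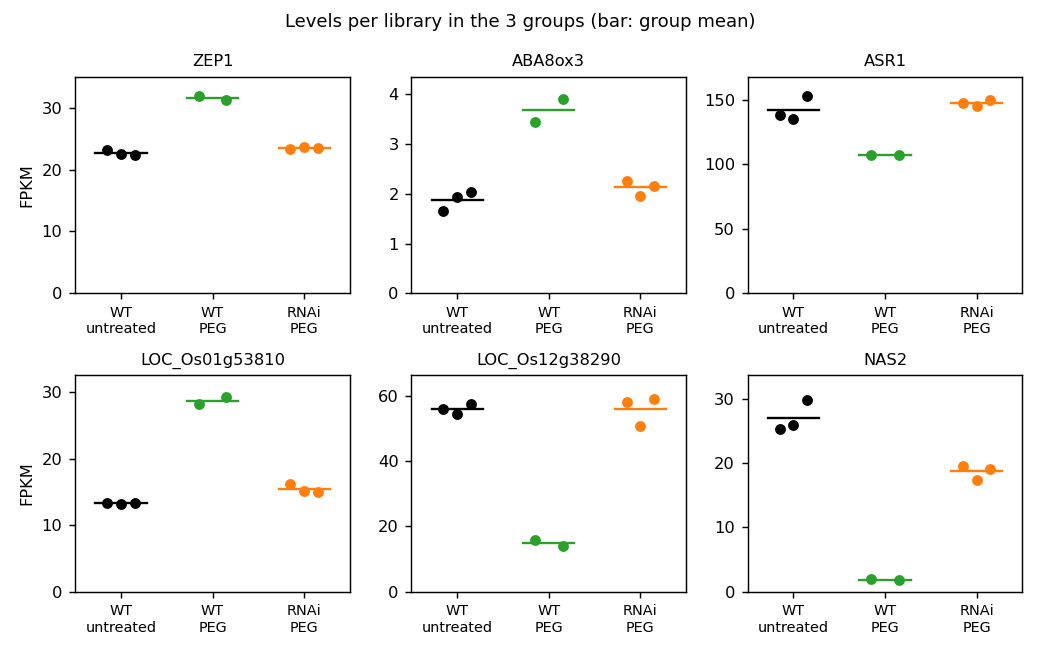
FPKM per library, with bars at group means, of 6 loci in which the treated RNAi line was nearer to untreated wild-type than wild-type under PEG was. ZEP1, ABA8ox3, ASR1, LOC_Os01g53810 and LOC_Os12g38290 met the rule for the untreated level, and NAS2, called lower at 0.693 of untreated, did not.

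Some loci at the untreated level in the treated RNAi line were away from it in wild-type under PEG. The loci in this paragraph carry no name in the tables used here and were chosen after their values were seen. LOC_Os12g38290 had 56.0, 54.3 and 57.6 FPKM untreated, 15.9 and 14.1 in wild-type under PEG and 58.0, 50.9 and 59.1 in the treated RNAi line. LOC_Os01g45914 had means of 3.80 FPKM untreated, 0.271 in wild-type under PEG and 3.89 in the treated RNAi line. In both, the wild-type PEG libraries alone stood low, and in LOC_Os11g37960 they did so as well, at 40.8 FPKM against 100.2 untreated and 94.1 in the treated RNAi line. In the other direction, LOC_Os01g53810 had 13.4, 13.1 and 13.3 FPKM untreated, 28.2 and 29.3 in wild-type under PEG and 16.1, 15.1 and 15 in the treated RNAi line. It was still called higher than untreated by 0.20 on the log2 scale, and quantile normalization turned that sign. Its place at the untreated level was lost without WT_control replicate 1 and without 708RNAi_PEG replicate 2 or 3. LOC_Os12g37970, at 13.7, 23.9 and 13.4 FPKM in the same order of groups, and LOC_Os12g29570, at 11.7, 20.2 and 12.3 FPKM, had the same shape, though the latter was called higher without WT_control replicate 3. LOC_Os11g37960 was called lower without 708RNAi_PEG replicate 3. With quantile normalization or total-read scaling LOC_Os12g38290, LOC_Os11g37960 and LOC_Os12g37970 lost the untreated level and were called lower. Their log2 differences went down to -0.44, -0.62 and -0.29. The comparisons share their libraries, and a low or high WT_PEG value rests on 2 libraries.

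The loci of highest level that sat at the untreated level were LOC_Os01g19740, with 1274 ± 165 and 1317 ± 63.5 FPKM, LOC_Os10g18340, with 969 ± 115 and 1019 ± 33.4 FPKM, and LOC_Os01g74300, with 703 ± 26.9 and 698 ± 23.1 FPKM (SD, n = 3 each). LOC_Os01g19740 and LOC_Os10g18340 lost this place without 708RNAi_PEG replicate 1 or 2, and were called higher without WT_control replicate 3. LOC_Os01g74300 had 554 FPKM in wild-type under PEG and was thus higher in the treated RNAi line than there (direct log2 difference 0.33 ± 0.07, limma adjusted p = 0.0047), a call lost without WT_PEG replicate 2. LOC_Os04g58710 and LOC_Os02g41630 followed, at 574 and 553 FPKM untreated. With quantile normalization or total-read scaling LOC_Os01g74300, LOC_Os04g58710 and LOC_Os02g41630 lost the untreated level and were called lower. Their log2 differences went down to -0.51, -0.59 and -0.61, so their place depends on the scaling.

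On the log2(FPKM + 1) scale the loci with the largest rises over the whole table included 4 with no name in the tables used here. LOC_Os11g26570 had 0.274, 0.661 and 0.377 FPKM untreated and 380, 388 and 363 FPKM in the treated RNAi line. LOC_Os11g07911 went from 0.614 to 418 FPKM, LOC_Os12g05210 from 2.33 to 826 FPKM and LOC_Os01g46600 from 2.67 to 698 FPKM. The other 6 of the 10 largest rises were LEA3-1, RAB16A, HOX24, RAB16B, LEA3-2 and WSI18, so that at least 5 of 10 were LEA or dehydrin genes. What the 4 loci without a name encode was not looked up. LEA3-2 (LOC_Os03g20680) went from 0.492 to 349 FPKM.

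On the same scale none of the 10 loci with the largest falls carries a name in the lists used here. LOC_Os10g05950 had 37.4, 36.8 and 38.6 FPKM untreated and 0.532, 0.605 and 0.552 FPKM in the treated RNAi line, a log2 difference of -4.63 ± 0.04 (limma adjusted p = 2.9e-12). Wild-type under PEG stood lower still, at 0.178 and 0.233 FPKM. LOC_Os12g07210 had 84.4, 86.1 and 93.4 FPKM untreated, 23.7 and 24.1 in wild-type under PEG and 3.65, 4.38 and 4.32 in the treated RNAi line. Here the treated RNAi line stood well below wild-type under PEG (direct log2 difference -2.29 ± 0.07, limma adjusted p = 8.1e-08), as did LOC_Os02g37700, at 46.9 FPKM untreated, 4.29 in wild-type under PEG and 1.41 in the treated RNAi line, and LOC_Os04g46810, at 45, 4.87 and 1.51 FPKM. In LOC_Os06g02530, LOC_Os08g26710, LOC_Os01g40560, LOC_Os02g57110, LOC_Os02g13660 and LOC_Os05g04440 the direct test between the treated groups was not passed. For LOC_Os02g13660 it was passed without WT_control replicate 3 or 708RNAi_PEG replicate 2. The smallest of the 10 falls was that of LOC_Os05g04440, from 22.5 to 0.621 FPKM.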

How the data were processed

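Polyadenylated RNA of whole seedlings was sequenced from stranded libraries, per the labels' protocols. The deposited table holds the authors' FPKM per locus and library, the authors' group means, and log2 fold changes and p-values of the authors' 2 comparisons, which were not used here. Per the submitters' processing notes, the authors' tools were deepTools, featureCounts, DESeq2, HISAT2, SAMtools, cutadapt and FastQC, with no role stated. Neither genome build nor strand use in counting was given in the sources used here, so overlapping and antisense genes may share reads.

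FPKM steps gave whole reads in 34119 of 34119 rows (100% within a tolerance of 0.03 reads), 30817289 to 49706703 per library. These reads came to 87.0% to 91.3% of the FPKM denominators in WT_control, 97.3% to 98.3% in WT_PEG and 101.4% to 103.3% in 708RNAi_PEG. At the median recovered length of 2783 bp, 1 read was worth 0.00747 to 0.0118 FPKM.

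Groups come from the sample labels. Loci with at least 1 FPKM in at least 2 of the 6 libraries were put on the log2(FPKM + 1) scale and tested by limma 3.58.1 (R 4.3.3, variance trend), all 3 groups in 1 model with 5 residual degrees of freedom, two-sided, Benjamini-Hochberg adjusted over 20808 loci. This scale understates the change of low genes. The code was tested on simulated data.

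The comparison, the gene lists and their members were chosen with earlier results of these data known. The lists hold 237 loci, assigned from memory by locus identifier. The name of 166 was found in the reference gene table (assembly ASM3414082v1) in chromosomal order, 66 names are not in it and rest on the lists alone, and 5 loci it contradicted were dropped. Names resting on the lists alone include NCED1, NCED2, NCED4, NCED5, PYL1, PYL6, BZIP12, BZIP71, SNAC1, NAC10, WSI18, the ASR genes, P5CR, PRODH, TPS1, the GOLS genes, LHCB5, LHCB6, LHCA3, RBCS2, RCC3, NIA2, NHX1, SOS1, CATC, PRR59, RR3, GA20ox1, GA2ox3, ACS6, SDG724, SDG725 and EIF4A. The table held 230 members, of which 213 were tested and 17 fell to the filter. The text names, per list, the 2 called members with the largest fold in each direction and those at the untreated level, the 10 largest rises and falls over all loci, and the 5 highest loci at the untreated level. Other members were named after their values were seen, and some members that the rule names are not reported here.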

Additional observations from a re-analysis of the deposited data

How the results depend on the processing

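Over 17 alternatives (pseudocount, filters, groups in the fit, replicate block, scaling, limma-voom and each of the 8 libraries left out), 191 of 210 named or listed calls held in every one and 19 were lost in at least 1. Loci lower by at least 2-fold numbered 3159 with log2(FPKM + 0.1) and 3301 with limma-voom, against 2040, both scales that shrink low values less. Loci at the untreated level numbered 9252 within 1.5-fold, 372 within 1.1-fold and, in an alternative added after the data were seen, 1952 with at least 5 FPKM, against 4395. Of 35 loci followed at this level 5 held it in all 17. Quantile normalization reversed EIF4A (-0.29), LOC_Os01g53810 (-0.068), PRODH (-0.023), PIP2-1 (-0.10), PIP2-2 (-0.24) and APX2 (-0.25), and total-read scaling reversed EIF4A (-0.00429). The cause was not tested. Of 170 counts of list members 39 moved by over 1.5 times in at least 1 alternative.

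Of 32 calls between the treated groups that were followed, 24 held in all of 16 alternatives chosen after the data were seen. With the replicate block 8635 loci were higher and 8500 lower. Whether the replicate numbers pair the samples was not settled. The deviations of same-numbered untreated and RNAi libraries correlated at -0.13, 0.36 and 0.30, and not every library correlated best with its own number. Deviations within a group are tied to each other through the group mean, so these values cannot decide it. Without WT_control replicate 3, 8695 were higher and 8411 lower. An edgeR test on recovered reads was not run, and limma-voom used the FPKM denominators in place of TMM factors.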

Other observations

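Neighbouring loci were high together at some places in the table's order. Runs of 4 consecutive tested loci at least 4-fold higher in the treated RNAi line lay from LOC_Os01g50370 to LOC_Os01g50420, with log2 differences of 3.30 to 6.31, from LOC_Os08g04340 to LOC_Os08g04370, with 2.98 to 3.41, and at the RAB16 genes, with 3.77 to 8.57. Similar copies in such runs may share reads.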
